A study of Homo sapiens with 6 samples.

Results

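A2058, a line from a metastatic melanoma, was grown in medium without vitamin C, renewed daily, and was either treated or left as a control, and the transcripts of the pyruvate dehydrogenase switch were followed in the RNA of 3 vitamin C wells and 3 control wells. The sample labels give 100 µM vitamin C for 48 h for the treated wells, whereas their growth and treatment protocol names 50 µM sodium ascorbate, and the study's methods state the higher dose. All wells hold the same line, so they model 1 tumor. The 10 genes described here, of 60675 in the count table, encode the 4 kinases PDK1, PDK2, PDK3 and PDK4, the phosphatases PDP1 and PDP2, and the subunits PDHA1, PDHB, DLAT and PDHX. They were chosen by name, but the set was put together with the fall of PDK4 in these wells already known. Their differences between the groups are therefore given as a description, with no p.

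The pyruvate dehydrogenase complex sits in the mitochondrial matrix and turns pyruvate into acetyl-CoA, the step that joins glycolysis to the tricarboxylic acid cycle. Its E1 enzyme is a tetramer of alpha and beta chains, its E2 enzyme DLAT forms the core, and PDHX holds the E3 enzyme DLD on that core. The kinases switch E1 off by phosphorylating serines of the alpha chain, and the phosphatases switch it on again. PDK4 is known for its induction in fasting muscle, heart and liver, through PPAR, FOXO and glucocorticoid receptor signaling, and PDK1 is a textbook target of the hypoxia-inducible factor HIF-1.

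The promoter sequence of PDK4 is shown because PDK4 changed the most of these genes, and a short stretch before a start of PDK1 because it was the next. Both are from RefSeq on GRCh38.p14 and are written 5′ to 3′ on the gene's strand. For PDK4 the 250 bases before the start are given (chr7:95596517-95596766, minus strand), with 2 GC boxes (GGGCGG) and 1 CCAAT box in capitals. For PDK1 the 30 bases before the second of its 2 RefSeq starts are given (chr2:172556060-172556089, plus strand). The 2 copies of the HIF core ACGTG, read from the other strand, are in capitals. This start was shown because the 250 bases before it hold that core, which those before the other start lack. The same 250 bases also held 7 GC boxes, which are not marked here.
PDK4: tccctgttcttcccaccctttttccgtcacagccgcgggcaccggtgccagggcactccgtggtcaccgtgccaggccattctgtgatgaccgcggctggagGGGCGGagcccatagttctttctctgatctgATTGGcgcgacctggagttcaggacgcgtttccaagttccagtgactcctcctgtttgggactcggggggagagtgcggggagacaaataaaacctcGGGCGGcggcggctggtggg
PDK1: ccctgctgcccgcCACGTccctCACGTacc

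Both strands of such windows of 250 bases were searched. A window was found for 9 of the 10 genes, 13 windows in all. Of the 35116 windows of all genes, 42.6% held GGGCGG, 32.0% CCAAT, 18.5% ACGTG and 32.2% the other HIF core GCGTG. The PDK4 window held neither HIF core, nor did the other window of PDK1. Among genes not called different between the groups, PDHB held 3 copies of each core, PDP2 held 3 of ACGTG, and 1 of the windows of PDK2 held 2 of ACGTG and 1 of GCGTG. The PDK4 window also lacked the forkhead motif GTAAACA (in 2.98% of windows), the estrogen-related receptor motif TCAAGGTCA (0.319%), the PPAR repeat of AGGTCA with 1 base between the copies (0.0171%) and the glucocorticoid palindrome of AGAACA and TGTTCT 3 bases apart (0.00285%). No window of the 9 genes held any of these 4 motifs. The PDK4 window held 19 CpG sites, against a median of 11 over all windows, and the 2 windows of PDK1 held 5 and 34. A match describes letters and is not evidence of binding.

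The libraries held 20944956 to 32549362 counts in vitamin C wells and 16248869 to 41884588 in control wells, and 16353 genes passed the filter on low counts, among them all 10 described here. Levels are counts per 1000000 (CPM) after TMM scaling, and fold changes, with their standard errors (SE), are from edgeR's quasi-likelihood fit over all 16353 genes, called at a Benjamini-Hochberg adjusted p of 0.05. Replicate wells differed by more than sampling noise (chi-square of 2.70 or more for each degree of freedom), the most between vitamin C replicate 3 and the other vitamin C wells (10.7 for both pairs, against 3.33 between replicates 1 and 2). The labels do not say whether the wells come from separate experiments, so p-values measure the spread between wells only. All 14 melanocytic markers were measured, with a summed level of 2784 to 2891 CPM in vitamin C wells and 2900 to 3003 CPM in control wells. Of these markers 7 were called higher and 1, DCT, lower, and DCT had the highest level of them. Over all genes tested, 6.09% were called higher and 5.09% lower. Of 12 skeletal muscle markers none passed the filter, and their sum was 0.578 to 1.43 CPM in vitamin C wells and 0.619 to 1.20 CPM in control wells, with TNNT3 and MYOG at 0. The 10 adipocyte markers summed to 43.8 to 47.1 CPM in vitamin C wells and 53.7 to 54.1 CPM in control wells, the highest being the lipase LPL, at 41.1 CPM with vitamin C and 50.0 CPM in control wells on average, while ADIPOQ, LEP, CIDEC and CIDEA had 2 counts or fewer in every library. The 9 fibroblast markers summed to 185 to 217 CPM in vitamin C wells and 113 to 124 CPM in control wells, and the 11 blood cell markers to 14.2 to 15.96 CPM in vitamin C wells and 12.7 to 14.5 CPM in control wells (HBA1 at 0). Among the fibroblast markers 7 were tested, and 4 were called higher and none lower. Among 3 adipocyte markers tested LPL was called lower, and among 3 blood cell markers tested 1 was called higher and 1 lower. The part of all these markers in the results was not tested.

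PDK4 was the kinase with the most transcripts and had the largest difference of the 10 genes. Its level was 205, 201 and 203 CPM in vitamin C replicates 1, 2 and 3, against 364, 382 and 390 CPM in control replicates 1, 2 and 3. The vitamin C wells lay close together, all well below the lowest control well. The means were 203 ± 1.99 CPM with vitamin C and 379 ± 13.2 CPM in control wells (SD, n = 3 wells each). This is a log2 fold change of -0.90 (SE 0.0440), or 46.3% less. The values rest on 16113 counts in vitamin C wells and 31712 in control wells. The coefficient of variation between vitamin C wells was 0.981%, where counting alone gives about 1.38%. Between control wells it was 3.49%, where counting gives about 1.02%. By CPM lost, PDK4 was at place 19 of the 16353 genes. Its exons overlap no other gene in GENCODE 29 (chromosome 7, 95583499 to 95596491, minus strand). In such bulk RNA, fewer cells that transcribe a gene and less of its RNA per cell cannot be told apart.

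PDK1 was the other gene of the 10 past the threshold. It had 48.8, 62.3 and 49.7 CPM in vitamin C replicates 1, 2 and 3, against 75.0, 85.2 and 82.9 CPM in control replicates 1, 2 and 3. No vitamin C well reached the lowest control well, although replicate 2 stood above the other vitamin C wells. Its log2 fold change was -0.59 (SE 0.0854), a level 33.5% lower. The spread between vitamin C wells (14.0%) exceeded that from counting (2.71%). Without vitamin C replicate 2 the log2 fold change was -0.71, and without replicate 1 it was -0.52.

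PDK2 and PDK3 did not pass the threshold. PDK2, which is widely expressed in normal tissues and had the fewest counts of the 4 kinases, had 3.76, 3.62 and 3.44 CPM in vitamin C wells, against 5.02, 4.28 and 5.57 CPM in control wells. All 3 vitamin C wells were below the control wells, but the log2 fold change of -0.45 (SE 0.143) did not pass the threshold. The gene had 287 counts in vitamin C wells and 414 in control wells, and 38.6% of its exon bases lie opposite SAMD14, whose reads cannot be told apart because the sources used here do not give a strand setting for the counting. PDK3, a kinase encoded on the X chromosome, had 25.1, 25.9 and 25.01 CPM in vitamin C wells, against 27.5, 29.9 and 26.8 CPM in control wells, a log2 fold change of -0.15 (SE 0.0675) that did not pass either. The groups did not overlap for any of the 4 kinases, each with the lower values in vitamin C wells. Over all genes tested, 30.6% did not overlap, 14.9% with the lower and 15.6% with the higher values in vitamin C wells.

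**Figure D1:**
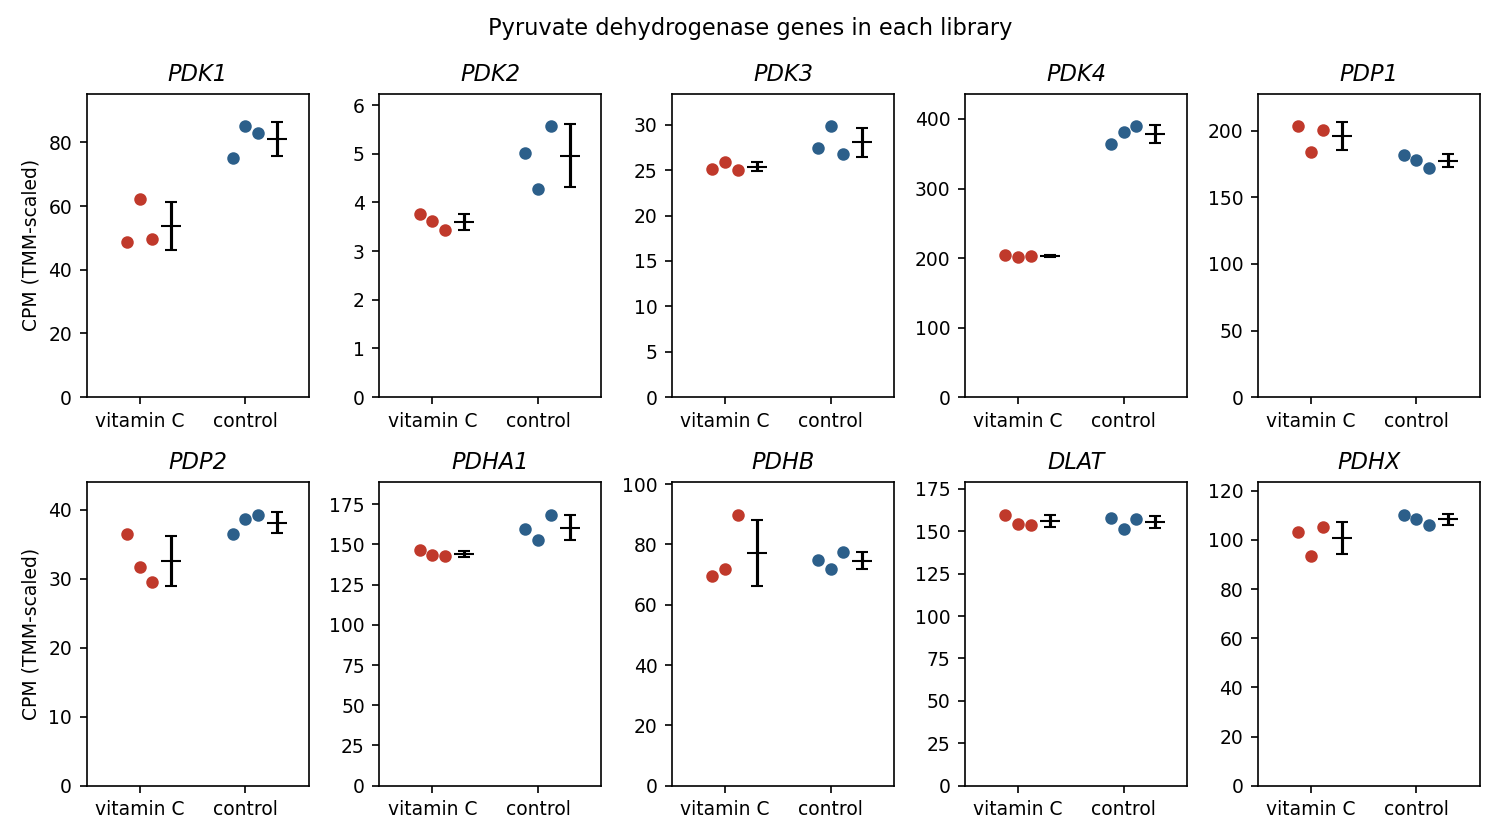
Level of each of the 10 genes (y axis, CPM after TMM scaling, from 0) in the vitamin C wells (red, left) and the control wells (blue, right), replicates 1 to 3 from left to right in each group, with the mean and SD beside them (n = 3). PDK4 lies at 201 to 205 CPM with vitamin C and at 364 to 390 CPM in control wells, while the points of DLAT lie at the same height in both groups.

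Levels of different genes were compared per length, as CPM per kb of annotated exons. Summed in this way, the 4 kinases had 54.4, 54.6 and 53.9 CPM per kb in vitamin C replicates 1, 2 and 3, against 92.1, 97.0 and 98.3 CPM per kb in control replicates. The ratio of the means was 0.567. PDK4 made up 82.7% ± 1.04 of the sum in vitamin C wells and 87.5% ± 0.359 in control wells (SD, n = 3 wells each). It also made up 93.7% of the difference between the groups. Without PDK4, the other kinases summed to 9.04, 10.1 and 9.02 CPM per kb in vitamin C wells and 11.5, 12.5 and 11.996 CPM per kb in control wells. The share of PDK3 was 9.43% ± 0.145 in vitamin C wells and 5.92% ± 0.368 in control wells (SD, n = 3 wells each). Thus the make-up of the family was dominated by PDK4 in both groups. Because these are shares of the same sum, the larger share of the other kinases with vitamin C is not a rise. Their own sum was lower there.

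**Figure D2:**
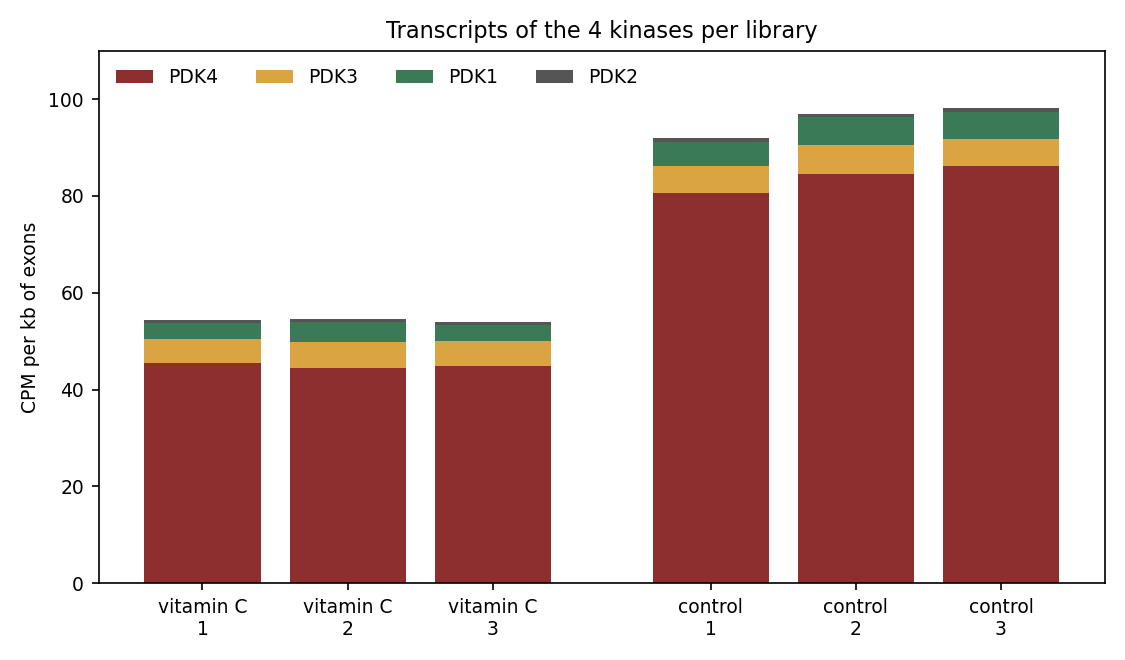
Summed transcripts of the 4 kinases in each library (y axis, CPM per kb of exons), vitamin C replicates 1 to 3 on the left and control replicates 1 to 3 on the right, with a segment for each kinase. The bars reach 53.9 to 54.6 with vitamin C and 92.1 to 98.3 in control wells, and PDK4 is the largest segment in every bar.

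Neither phosphatase passed the threshold. PDP1, whose activity is stimulated by calcium, had 203, 184 and 201 CPM in vitamin C wells, against 182, 178 and 172 CPM in control wells. Its lowest vitamin C well was just above the highest control well, and the log2 fold change of 0.14 (SE 0.0498) did not pass the threshold. Without vitamin C replicate 2, the lowest of these wells, it was 0.19 and passed. PDP2 had 36.5, 31.7 and 29.5 CPM in vitamin C wells, against 36.5, 38.6 and 39.3 CPM in control wells, with overlap at replicate 1 of each group and a log2 fold change of -0.22 (SE 0.0773). Without vitamin C replicate 1 it was -0.31 and passed. Summed per length, the phosphatases had 38.9 ± 2.06 CPM per kb with vitamin C and 36.2 ± 0.734 CPM per kb in control wells (SD, n = 3 wells each). The ratio of kinase to phosphatase transcripts per length was 1.34, 1.49 and 1.37 in vitamin C wells, against 2.50, 2.66 and 2.78 in control wells. The groups did not overlap in this ratio, but its numerator is mostly PDK4, whose fall was known when the genes were chosen.

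The subunits of the complex stayed near their control levels. The E1 alpha chain PDHA1, which carries the serines that the kinases phosphorylate, had 146, 143 and 142 CPM in vitamin C wells, against 160, 153 and 169 CPM in control wells. The groups did not overlap, and the log2 fold change was -0.15 (SE 0.0480), short of the threshold. It passed with upper quartile scaling and with a robust fit, and 21.3% of its exon bases lie opposite MAP3K15. The E1 beta chain PDHB had 69.7, 71.9 and 89.9 CPM in vitamin C wells, against 74.7, 71.7 and 77.4 CPM in control wells. Its log2 fold change of 0.05 (SE 0.0816) was set by vitamin C replicate 3, without which it was -0.07. DLAT, the E2 core enzyme, had 160, 154 and 154 CPM in vitamin C wells and 158, 151 and 157 CPM in control wells, a log2 fold change of 0.00 (SE 0.0445). PDHX, the E3-binding protein, had 103, 93.4 and 105 CPM in vitamin C wells, against 110, 109 and 106 CPM in control wells (log2 fold change -0.11, SE 0.0544). The ratio of kinase to PDHA1 transcripts per length was 1.70 ± 0.0218 with vitamin C and 2.69 ± 0.143 in control wells (SD, n = 3 wells each). The numerator of this ratio, too, is mostly PDK4.

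Of the 10 genes, 2 passed the threshold, both lower in vitamin C wells, and 8 did not. Over all 16353 genes tested, 11.2% were called, 6.09% higher and 5.09% lower. Between the groups, 7 of the 10 did not overlap, 6 lower and 1 higher in vitamin C wells. Of all genes tested, 30.6% did not overlap, 14.9% lower and 15.6% higher. The median log2 fold change was -0.15 for the 10 genes and 0.00 for all genes tested. These counts include the value for which the set was assembled, so nothing is read from them.

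Per length, PDK4 was the most abundant transcript of the pathway in control wells. PDK4 had 83.8 ± 2.92 and DLD 67.9 ± 1.66 CPM per kb there (SD, n = 3 wells each). With vitamin C the order of these genes was reversed, at 44.9 ± 0.441 CPM per kb for PDK4 and 69.0 ± 4.02 CPM per kb for DLD (SD, n = 3 wells each). Among 16240 genes with a known length, PDK4 was at place 946 from the top in vitamin C wells and at place 390 in control wells. In control wells PDHA1 (35.7 CPM per kb), DLAT (32.2), PDP1 (31.6) and PDHX (28.8) came next, and the ranges of DLAT and PDP1 overlapped. In vitamin C wells PDP1 (34.99 CPM per kb), DLAT (32.3) and PDHA1 (32.1) came next, with overlapping ranges between neighbours, and then PDHX (26.8). PDHB came after PDHX in both groups, at 16.4 CPM per kb with vitamin C and 15.8 CPM per kb in control wells. PDK3, PDK1, PDP2 and the phosphatase regulatory subunit PDPR lay lower, between 3.603 and 5.12 CPM per kb with vitamin C and between 4.18 and 5.67 CPM per kb in control wells. PDK3 and PDK1 overlapped in control wells but not with vitamin C. PDK2 was the lowest in both groups (0.657 CPM per kb with vitamin C and 0.904 CPM per kb in control wells). With the longest transcript in place of all exons, PDHX moved above DLAT in both groups, while PDK4 and DLD kept their places.

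**Figure D3:**
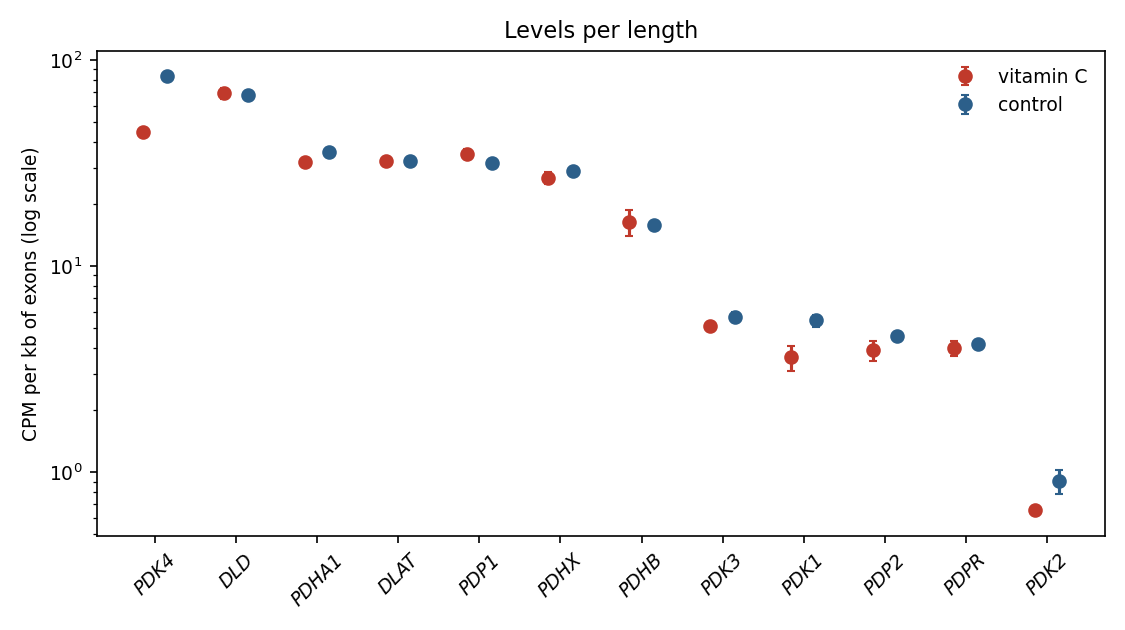
Mean level per length (y axis, CPM per kb of exons, log scale) of the 10 genes, DLD and PDPR, with vitamin C in red and control in blue and SD bars (n = 3 wells each), ordered by the control mean. PDK4 is above DLD in control wells (83.8 against 67.9) and below it with vitamin C (44.9 against 69.0).

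The remaining genes of the complex were taken as a list with those for the mitochondrial pyruvate carrier, lipoate attachment and thiamine supply. Of 13 such genes 10 had enough counts, and none passed the test in either direction (median log2 fold change 0.05). Over all genes tested 11.2% were called, so having none among 10 does not set this list apart. The groups did not overlap for 3 of the 10, all higher in vitamin C wells, beside 15.6% of all genes tested. None of the 10 had an unadjusted edgeR p under 0.05, and DESeq2 and limma-voom called none of them. DLD, shared with the other 2-oxoacid dehydrogenase complexes, had 366 ± 21.3 CPM with vitamin C and 360 ± 8.81 CPM in control wells (SD, n = 3 wells each). Its log2 fold change was 0.02 (SE 0.0493, edgeR adjusted p = 0.83). The carrier genes MPC1 and MPC2, through which pyruvate enters mitochondria, had log2 fold changes of 0.11 (SE 0.0620) and 0.08 (SE 0.0604), and PDPR had -0.06 (SE 0.0695). The testis form of E1 alpha, PDHA2, had 1 count in the vitamin C libraries and 0 in the control libraries.

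The branched-chain, 2-oxoglutarate and 2-oxoadipate complexes use the same design, and the branched-chain complex also has a kinase, BCKDK, and a phosphatase, PPM1K. Of 10 genes of these complexes, 9 were tested, 2 rose and none fell (median log2 fold change -0.07), where 6.09% of all genes tested were called higher and 5.09% lower. PPM1K, which switches the breakdown of branched-chain amino acids on, had 86.5, 78.5 and 78.6 CPM in vitamin C wells, against 43.8, 45.5 and 42.8 CPM in control wells. Every vitamin C well was above every control well, a log2 fold change of 0.88 (SE 0.0585, edgeR adjusted p = 9.05e-07). BCKDK had 16.2, 16.7 and 15.5 CPM in vitamin C wells, against 19.3, 20.0 and 16.8 CPM in control wells, and did not pass (log2 fold change -0.22, SE 0.0824, edgeR adjusted p = 0.11). The ratio of BCKDK to PPM1K per length was 0.550, 0.626 and 0.578 in vitamin C wells, against 1.30, 1.29 and 1.15 in control wells. The change in this ratio is mostly that of PPM1K, the gene with the smallest edgeR p of its list. OGDH, the E1 enzyme of the 2-oxoglutarate complex, rose to 123 ± 8.67 CPM with vitamin C, against 88.6 ± 3.49 CPM in control wells (SD, n = 3 wells each; log2 fold change 0.47, SE 0.0580, edgeR adjusted p = 1.65e-04). BCKDHA had 8 counts or fewer in every library, and 63.8% of its exon bases are shared with another gene on the same strand, so its level is uncertain.

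**Figure D4:**
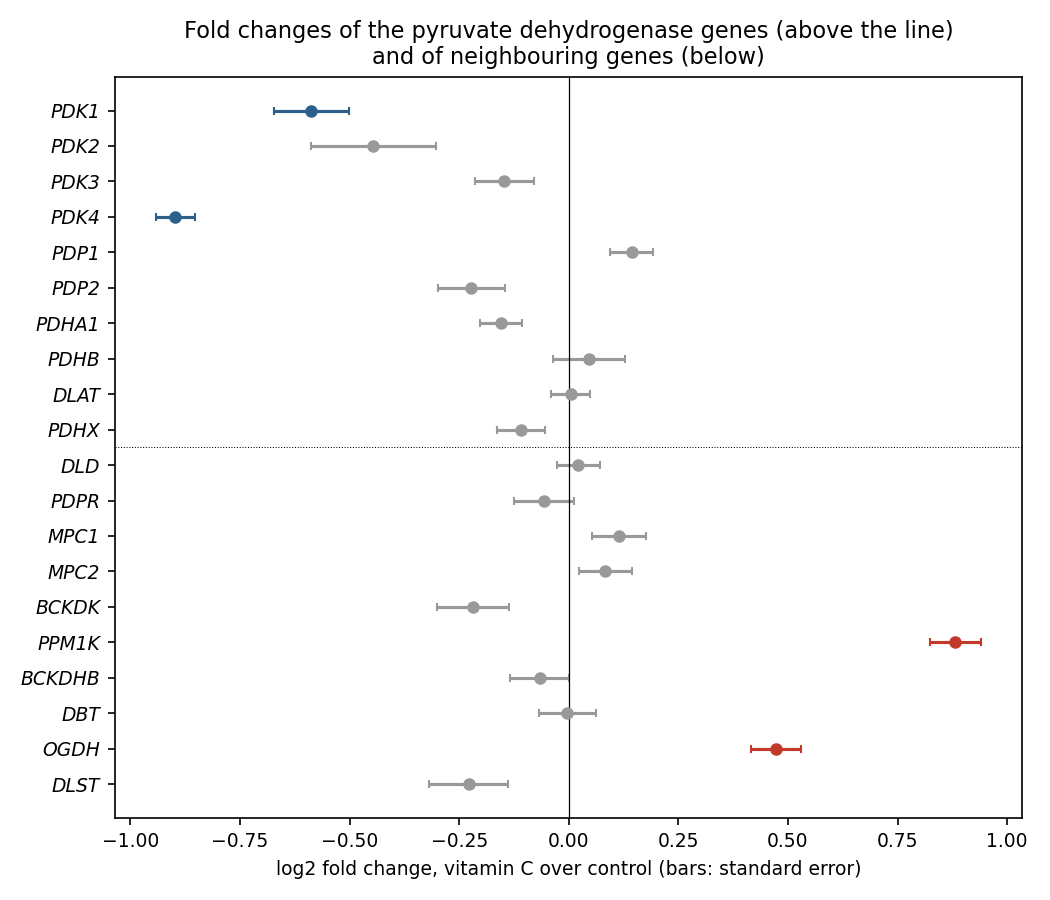
Log2 fold change, vitamin C wells against control wells (x axis, with standard error bars), for the 10 genes above the dotted line and for DLD, PDPR, the pyruvate carrier and genes of the related complexes below it. Blue and red points passed an adjusted p of 0.05 with lower and higher levels in vitamin C wells, and gray points did not. PDK4 lies at -0.90 and PDK1 at -0.59, and PPM1K at 0.88 and OGDH at 0.47.

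Among 17 genes for other fates of pyruvate, 12 were tested, 1 rose and 4 fell (median log2 fold change -0.03), beside 6.09% higher and 5.09% lower over all genes tested. LDHA, which makes lactate from pyruvate, fell by 15.4% (log2 fold change -0.24, SE 0.0423, edgeR adjusted p = 0.0024). The malic enzymes ME1 and ME2 had log2 fold changes of -0.32 and -0.23 (edgeR adjusted p = 0.014 and 0.011). ME1 no longer passed without control replicate 1 or 2, nor ME2 without control replicate 3. LDHC, the testis form of lactate dehydrogenase, had 3.13, 3.71 and 2.96 CPM with vitamin C, against 1.82, 2.42 and 2.29 CPM in control wells (edgeR adjusted p = 0.044), and no longer passed when any library other than vitamin C replicate 3 was left out. The list then held 2 or 3 calls. Of 17 genes of the tricarboxylic acid cycle and citrate export, 15 did not pass and 2 fell, where 5.09% of all genes tested were called lower (median log2 fold change -0.04). MDH2, a malate dehydrogenase, had a log2 fold change of -0.34 (SE 0.0639, edgeR adjusted p = 0.0039). CS, the citrate synthase that uses the acetyl-CoA of the complex, had -0.20 (SE 0.0537, edgeR adjusted p = 0.028), and did not pass without any 1 of the control wells or without vitamin C replicate 1.

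The regulators known to drive PDK4 in other tissues were measured with their targets. Of 34 genes for PPAR and estrogen-related receptor factors and targets, 26 were tested, 4 rose and none fell (median log2 fold change 0.08), where 6.09% of all genes tested were called higher and 5.09% lower. The fatty acid receptor CD36 had 6.54, 6.53 and 6.64 CPM in vitamin C wells, against 2.02, 2.35 and 1.92 CPM in control wells, a log2 fold change of 1.64 (SE 0.140, edgeR adjusted p = 7.90e-06). The lipid droplet protein PLIN2 had 0.21, and ANGPTL4, an inhibitor of lipoprotein lipase, 1.22 (edgeR adjusted p = 0.032 and 0.019). Both lost their call when certain libraries were left out: PLIN2 without vitamin C replicate 2 or control replicates 2 or 3, and ANGPTL4 without vitamin C replicate 2 or control replicates 1 or 3. The list held 1 call without vitamin C replicate 2 and 2 without control replicate 1 or 3, and it held 6 without vitamin C replicate 3, where PPARA and the catalase gene CAT passed as well. The receptors PPARA, PPARD and PPARG and the coactivator PPARGC1A had log2 fold changes of 0.09, 0.21, -0.28 and -0.10, and none passed with all libraries.

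Of 25 FOXO genes and targets, 22 were tested, 2 rose and 2 fell (median log2 fold change -0.05), beside 6.09% higher and 5.09% lower over all genes tested. SESN3, a stress-induced sestrin, and IRS2, an adaptor of the insulin receptor, had log2 fold changes of -0.40 (SE 0.0506) and -0.43 (SE 0.0774, edgeR adjusted p = 2.17e-04 and 0.0027). The mitochondrial superoxide dismutase SOD2 had 0.32 (SE 0.0444, edgeR adjusted p = 4.23e-04). TRIM63, a ubiquitin ligase of muscle, had 2.37 (SE 0.305, edgeR adjusted p = 2.30e-04), from 136 counts in vitamin C wells and 28 in control wells. It was picked by the study from these libraries, and the study reports a rise by qRT-PCR as well. FOXO1 and FOXO3 had -0.12 and 0.01 and did not pass. Of 15 genes for the glucocorticoid receptor and its targets, 13 were tested, and 1 rose and 1 fell (median log2 fold change -0.02), beside the same shares over all genes. GLUL, glutamine synthetase, had 0.49 (SE 0.104, edgeR adjusted p = 0.0084). MT2A, of the metallothionein family whose members are alike in sequence, so that its counts are uncertain, had -0.68 (SE 0.150, edgeR adjusted p = 0.010), with 42.5, 40.2 and 24.1 CPM in vitamin C wells, and no longer passed without control replicate 1 or 3. The receptor gene NR3C1 had 0.11 and did not pass. The list held 1 call without control replicate 1 or 3, and 4 without vitamin C replicate 3.

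Of 28 HIF targets, 27 were tested, 1 rose and 6 fell (median log2 fold change -0.13), where 6.09% of all genes tested were called higher and 5.09% lower. HK2, the hexokinase of many tumors, had 94.0, 93.2 and 82.1 CPM in vitamin C wells, against 120, 134 and 123 CPM in control wells (log2 fold change -0.48, SE 0.0618, edgeR adjusted p = 2.17e-04). The collagen prolyl hydroxylase subunit P4HA1 and DDIT4, an inhibitor of mTOR signaling, had -0.32 (SE 0.0427) and -0.31 (SE 0.0474, edgeR adjusted p = 3.38e-04 and 8.63e-04), and the reads of DDIT4 overlap an antisense gene over 41.2% of its exon bases. LDHA is also in this list. The 1 that rose was ANGPTL4, which is in the PPAR list as well. With 1 library left out the list held 5 to 8 calls, with HK2, P4HA1, DDIT4 and LDHA always among them. Without vitamin C replicate 2, 8 were called lower and none higher. The log2 fold change of PDK1 (-0.59) was below that of each of these 27 genes, the lowest of which was that of HK2.

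**Figure D5:**
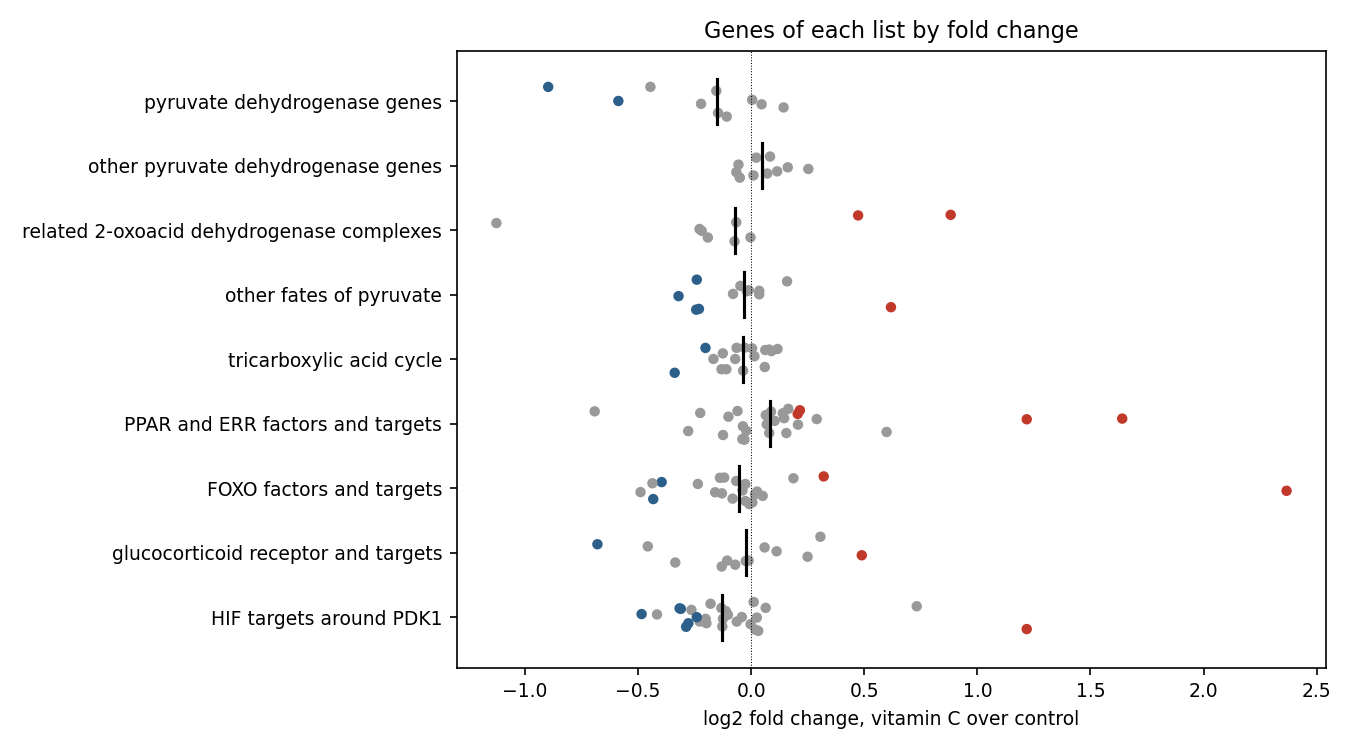
Log2 fold change, vitamin C wells against control wells (x axis), for the tested genes of each list (rows), with the median as a black line. Blue and red points passed an adjusted p of 0.05, lower and higher in vitamin C wells, and gray points did not, with vertical scatter only to separate points. The medians lie between -0.15 for the pyruvate dehydrogenase genes and 0.08 for the PPAR and ERR genes.

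The genes whose pattern over the 6 libraries was most like that of PDK4 were found by the root mean square difference of the centered log2 CPM, among 11724 protein-coding genes that averaged 1 CPM or more. The 5 closest were MGAT4A (0.0435), FGFR1 (0.0531), EVL (0.0548), KLF4 (0.0710) and ABLIM1 (0.0724). MGAT4A, a glycosyltransferase of the Golgi, had 10.2, 10.7 and 10.8 CPM in vitamin C wells, against 18.8, 21.0 and 20.7 CPM in control wells. FGFR1, a fibroblast growth factor receptor, had 11.2, 11.4 and 11.6 CPM in vitamin C wells, against 18.9, 21.1 and 20.5 CPM in control wells. Among the other 9 genes of the switch, PDK1 was the closest (0.193, place 86), followed by PDK2 (0.251, place 227), and PDP1 was the farthest (0.525). These distances describe 6 libraries in 2 groups and were not tested.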

How the data were processed

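The authors depleted ribosomal RNA, sequenced paired-end reads, used STAR for alignment and HTSeq with a GENCODE annotation for gene counts, per the paper. The tools that the submitters' processing notes list are CASAVA 1.4, Trim Galore and STAR, and the build is hg38. The deposited values are raw counts, not normalized. The table of the series and those of the 6 samples were identical. GENCODE 29 gave symbols, coordinates and exon lengths, and held 57055 of the 60675 identifiers. The paper names an earlier GENCODE release for counting, and the release behind the deposited counts is not stated. The exons counted may therefore differ from those used for levels per length. Counts were filtered by filterByExpr, scaled by TMM and tested, vitamin C over control, with edgeR 4.0.16 in R 4.3.3 (quasi-likelihood, no covariate, Benjamini-Hochberg over 16353 genes, threshold 0.05). Steps were tested on simulated data. The genes, lists and tests were chosen with earlier results of these data known. Genes named from a list are up to 4 with the smallest p among those called, and regulators. DESeq2 1.42.0 and limma 3.58.1 (voom), other scalings and filters, a replicate block and each library left out were alternatives. Libraries held 16248869 to 41884588 counts. The paper states 4 samples per lane, but the lane or batch of each library is not given. 1 gene of the lists is not reported here by name.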

Additional observations from a re-analysis of the deposited data

How the results depend on the processing

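PDK4 and PDK1 were called, and lower in vitamin C wells, under all 15 alternatives, with log2 fold changes of -0.93 to -0.87 for PDK4 and -0.71 to -0.52 for PDK1. PDHA1 was also called with upper quartile scaling (-0.17) and with the robust fit (-0.15), and PDP2 and PDP1 without vitamin C replicate 1 or 2 (-0.31 and 0.19). Leaving out 1 library at a time, 2 to 3 of the 10 genes were called, 2 to 3 lower and 0 to 1 higher. Over all genes such fits called 964 to 2095, 549 to 1184 higher and 411 to 911 lower, and the other settings stayed within 1.5 times the 1829 called. The PDK4 share of kinase transcripts was 71.1% with vitamin C and 76.9% in control wells when CPM was not divided by length, and 84.8% and 89.0% with the longest transcript. With the replicate number as a block 1913 genes were called, with the same 2 of the 10 genes. The deviations of same-numbered wells correlated at 0.124, -0.0218 and 0.0969, against -0.181 to 0.107 for wells with different numbers. So few values cannot decide whether same-numbered wells share a batch. With DESeq2, which called 1699 genes, LDHC and MT2A did not pass (adjusted p = 0.082 and 0.072), and with the robust fit MT2A did not (adjusted p = 0.18).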

Other observations

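Vitamin C replicate 2, where PDK1 was highest of the vitamin C wells (62.3 CPM, against 48.8 and 49.7 CPM), was also the highest of them for 17 of the 27 HIF targets tested (63.0%). Over all genes tested this held for 28.9%. Such a skew was not particular to this list or well. Of the 22 FOXO genes tested, 12 (54.5%) were highest in vitamin C replicate 1, against 32.2% of all genes. Of the 10 genes of the switch, 6 were highest in replicate 1 and 2 in replicate 2. BNIP3, a mitophagy receptor and HIF target named after its values were seen, had 111, 138 and 114 CPM in vitamin C replicates 1, 2 and 3, against 134, 144 and 141 CPM in control replicates. The HIF targets HK2 and P4HA1 were lower in all vitamin C wells than in any control well, replicate 2 included. What set replicate 2 apart was not tested.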
